A study of Homo sapiens with 8 samples.

Results

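Chromatin occupancy of the zinc-finger transcription factor GATA2 was examined around 10 genes of the Notch signalling pathway. They were the receptor genes NOTCH1, NOTCH2 and NOTCH3, the ligand genes JAG1 and JAG2, the coactivator genes MAML1, MAML2 and MAML3, and the target genes HES1 and HEY1. The 10 were chosen by name from 20037 protein-coding genes with earlier results of these peak lists in view, so their peak values are a description. A peak was assigned to a gene when its summit, the point of highest signal, lay within 50 kb of the gene's RefSeq span in GRCh38 (hg38). The peaks were measured by ChIP-seq, in which DNA that is crosslinked to a protein is precipitated with an antibody and sequenced. The cells were VCaP, an established cell line of castrate-resistant human prostate cancer. All cells were held in medium without steroids for 72 h. The 2 control precipitates came from cells titled as non-treated, which per the labels' protocol received the DMSO vehicle (called untreated here), and the 2 treated precipitates from cells given 1 µM JQ1 for 24 h. JQ1 is an inhibitor of the BET bromodomain proteins, which bind acetylated histones. There were 4 input chromatin samples besides, for which no peak list was analysed here.

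Notch receptors are single-pass membrane proteins that are cleaved when a ligand such as a Jagged protein on a neighbouring cell binds them. The released intracellular domain enters the nucleus, joins the DNA-binding protein RBPJ, and recruits a Mastermind-like (MAML) coactivator, which switches on genes such as HES1 and HEY1. In prostate epithelium the pathway is known for its part in the balance of basal and luminal cells.

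The lists of replicate 1 were much shorter than those of replicate 2. They held 6902 peaks untreated and 4974 with JQ1, against 27373 untreated and 32404 with JQ1 in replicate 2. The authors' peak caller had been run on each precipitate alone, and the weakest −log10 q in the lists ran from 1.31 to 1.33. Any count that requires a peak in every list is therefore limited by the replicate 1 lists. The −log10 q values belong to each list, and the read depth is unknown. A difference in them between lists is a description and not a measure of the treatment. The labels do not say whether the replicates came from separate cultures, so the spread between them may be technical.

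GATA2 peaks near these genes gathered at MAML2 and MAML3. In the windows of the 10 genes, untreated replicate 1 had 10 peaks, JQ1 replicate 1 had 5, untreated replicate 2 had 31 and JQ1 replicate 2 had 39. MAML2 and MAML3 together held 80% of these peaks in each replicate 1 list, 71.0% in untreated replicate 2 and 61.5% in JQ1 replicate 2. Overlapping peaks of the 4 lists were merged into 39 regions, of which 25 belonged to MAML2 or MAML3. A region present in all 4 lists, called common here, was found at MAML2 and MAML3, which made 2 of 10 members against a background of 13.6% of all protein-coding genes. A region in both untreated lists (untreated recurrent) lay near 4 members, NOTCH2, JAG1, MAML2 and MAML3, against 24.3% of genes. A region in both JQ1 lists (JQ1 recurrent) lay near 3 members, MAML1, MAML2 and MAML3, against 17.8%. At least 1 peak in any list lay near 7 members, against 62.6%, and NOTCH3, JAG2 and HEY1 had none. List by list, peaks lay near 4 members in untreated replicate 1 (25.7% of genes), 3 in JQ1 replicate 1 (18.2%), 7 in untreated replicate 2 (54.6%) and 7 in JQ1 replicate 2 (58.2%). In both groups the shorter list reached fewer members.

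**Figure D1:**
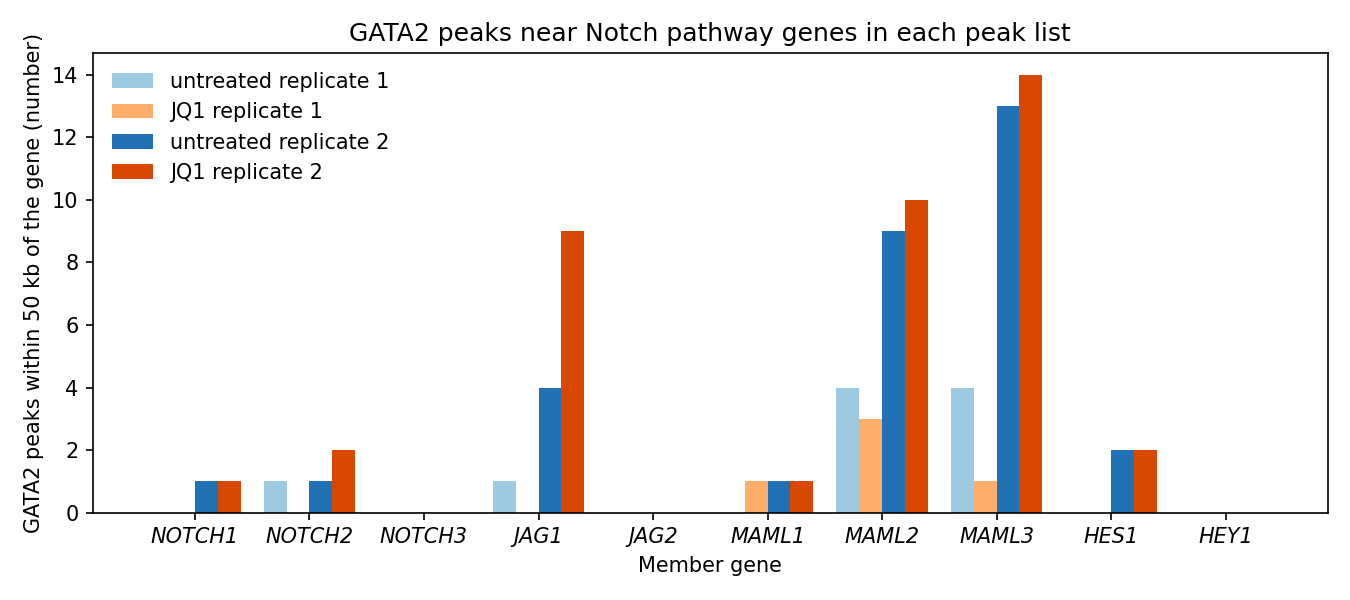
Number of GATA2 peaks (vertical axis) with a summit within 50 kb of each member gene (horizontal axis), with 1 bar for each of the 4 peak lists. MAML3 reached 14 peaks and MAML2 10 in JQ1 replicate 2, and NOTCH3, JAG2 and HEY1 had no bar.

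Gene length moves with these counts, since a longer span gives a wider window. MAML3 spans 437 kb, MAML2 367 kb and NOTCH2 158 kb, and the other 7 members are at most 100 kb long. Among protein-coding genes over 100 kb, 31.4% had a common region, against 9.99% of genes up to 100 kb. For untreated recurrent regions the shares were 48.9% and 19.4%, and for JQ1 recurrent regions 40.1% and 13.4%. None of the 7 shorter members had a common region. The part of gene length in the members' counts was not tested. Per Mb of window, the members together held 4.61 peaks in untreated replicate 1, against 2.34 per Mb over the genome, and 2.30 in JQ1 replicate 1, against 1.69. In replicate 2 the members held 14.3 untreated, against 9.30, and 18.0 with JQ1, against 11.0. The genome values also take in DNA far from any gene, whereas the member values come from windows around genes. The 2 are therefore not like for like. Density in the windows of all protein-coding genes was not determined. Whether the members are denser than other genes is unknown. JAG1 was denser than MAML2 and MAML3 in replicate 2. It held 29.3 per Mb untreated and 66.0 with JQ1, against 19.3 and 21.4 at MAML2 and 24.2 and 26.0 at MAML3. In replicate 1 it was less dense than both, with 7.34 untreated and 0 with JQ1.

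Among the receptor genes, NOTCH2 was the only one of the 3 with a recurrent region. NOTCH2 codes for a receptor (NCBI gene 4853, chr1:119911553-120069662, minus strand). A region inside its span, 87.0 kb from the start, had its summit at 119982638. The −log10 q there was 7.04 in untreated replicate 1, 8.83 in untreated replicate 2 and 7.71 in JQ1 replicate 2, with no peak in JQ1 replicate 1. These are weak peaks, placed at the top 66.1%, 65.9% and 68.7% of their lists by q-value. A second region, 43.1 kb beyond the gene's end, was listed in JQ1 replicate 2 alone, with a −log10 q of 11.8. NOTCH2 has near-identical partial copies elsewhere on its chromosome, and how reads with several matches were treated is not given in the sources used here.

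NOTCH1, the receptor gene at chr9:136494433-136546048 (NCBI gene 4851), had a single region. It was present in both replicate 2 lists and in neither replicate 1 list, with a −log10 q of 11.3 untreated and 12.1 with JQ1. Its summit at 136480357 lay 14.1 kb beyond the end of NOTCH1 and inside the neighbouring gene SEC16A. NOTCH3, a receptor gene at chr19:15159038-15200995 (NCBI gene 4854), had no peak in any list.

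The ligand gene JAG1 had the next most peaks of the members after MAML3 and MAML2. It had 8 regions within 50 kb of its span of 36.3 kb. Of these, 2 lay inside the span, 3 upstream of the start and 3 beyond the end. JAG1 (NCBI gene 182, chr20:10637684-10673999, minus strand) codes for the ligand Jagged1. It had 1 peak in untreated replicate 1, none in JQ1 replicate 1, 4 in untreated replicate 2 and 9 in JQ1 replicate 2. Its 14 peaks over the 4 lists were equalled or exceeded at 5.81% of protein-coding genes. The groups overlapped, since the untreated counts fell between the JQ1 counts.

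A JAG1 region 34.9 kb upstream of the start, with its summit at 10708872, was untreated recurrent. Its −log10 q was 6.84 in untreated replicate 1, 15.6 in untreated replicate 2 and 18.3 in JQ1 replicate 2. A region inside the gene, 9.19 kb from the start, had 25.6 in untreated replicate 2 and 14.1 in JQ1 replicate 2. The region 46.0 kb beyond the end had 13.7 in untreated replicate 2 and 26.7 in JQ1 replicate 2, and lay inside the neighbour SLX4IP. A region 42.3 kb upstream had 13.7 untreated and 16.9 with JQ1. The other 4 JAG1 regions were listed in JQ1 replicate 2 alone, with −log10 q from 4.22 to 12.2. Of these, the one 1.61 kb inside the gene was the member region nearest to any start. JAG2, the other Jagged ligand gene (NCBI gene 3714, chr14:105140995-105168776), had no peak in any list.

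Of the coactivator genes, MAML2 had the strongest GATA2 regions of all members. MAML2 (NCBI gene 84441, chr11:95976598-96343195, minus strand) had 4 peaks in untreated replicate 1, 3 in JQ1 replicate 1, 9 in untreated replicate 2 and 10 in JQ1 replicate 2, which merged into 10 regions. The 3 common regions lay inside the gene, with summits at 96145461, 96193488 and 96220078. They were 198, 150 and 123 kb from the start and so fell within 74.6 kb of each other. The annotation used here gives spans without exons, so that exon or intron is not stated.

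The region at 96145461 (chr11:96145231-96145769) was the strongest of the 39 in each of the 4 lists. Its −log10 q was 117.1 in untreated replicate 1, 67.7 in JQ1 replicate 1, 237.5 in untreated replicate 2 and 247.8 in JQ1 replicate 2. The authors' fold enrichment over local background was 30.2, 17.6, 48.9 and 48.3 in the same lists. By q-value it took place 11 of all peaks in both untreated lists, place 25 in JQ1 replicate 1 and place 16 in JQ1 replicate 2. Its 4 summits lay within 13 bp, against a median of 24 bp over all 3236 common regions.

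At 96193488 the −log10 q was 74.5 in untreated replicate 1 and 25.8 in JQ1 replicate 1, and of 194.8 and 181.0 in replicate 2. It stood within the top 1.01% of peaks in untreated replicate 1 but at the top 7.63% in JQ1 replicate 1. In replicate 2 it was at the top 0.245% untreated and 0.324% with JQ1. The region at 96220078 had 64.5 and 36.4 in replicate 1 and 153.9 and 132.5 in replicate 2, untreated first. At both places the JQ1 value of each replicate was below its untreated value, and the replicates differed from each other by more than the treatments did.

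The other 7 MAML2 regions were weaker. A region 8.54 kb upstream of the start, at 96351730, was untreated recurrent, with a −log10 q of 16.01 and 31.5 untreated and of 11.7 in JQ1 replicate 2. The regions 41.1 and 44.1 kb upstream lay inside the neighbour CCDC82 and were in both replicate 2 lists only. Their values were 40.1 untreated and 20.6 with JQ1 at the former, and 16.1 and 31.6 at the latter. The remaining 4 lay inside MAML2, near the common regions, with −log10 q from 3.89 to 12.1.

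MAML3, another coactivator gene (NCBI gene 55534, chr4:139716753-140154184, minus strand), had the most peaks of the members but weaker ones. It had 4 peaks in untreated replicate 1, 1 in JQ1 replicate 1, 13 in untreated replicate 2 and 14 in JQ1 replicate 2, which merged into 15 regions. Of these, 13 lay inside the gene and the other 2 lay beyond its end, in MGST2. Its single common region, at 140008674 and 146 kb from the start, had a −log10 q of 10.1 in untreated replicate 1, 5.34 in JQ1 replicate 1, 97.1 in untreated replicate 2 and 77.5 in JQ1 replicate 2. It stood at the top 3.78% and 4.93% of the replicate 2 lists but only at the top 47.1% and 74.1% of the replicate 1 lists, untreated first.

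Another 3 MAML3 regions were untreated recurrent and were present in JQ1 replicate 2 but not in JQ1 replicate 1. The strongest of them lay 10.4 kb inside the gene from its start, with a −log10 q of 10.4 and 47.8 untreated and of 27.5 in JQ1 replicate 2. The one 168 kb from the start had 5.47 and 27.6 untreated and 11.2 in JQ1 replicate 2. The one 252 kb from the start had 3.97, 15.6 and 14.7 in that order. The 11 remaining regions were found in replicate 2 alone, 8 of them in both of its lists.

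MAML1, the third coactivator gene (NCBI gene 9794, chr5:179732822-179777283, plus strand), had 1 region, 0.872 kb beyond the end of its span. It was missing from untreated replicate 1 and present in the other lists. The −log10 q was 40.7 in untreated replicate 2 and 39.8 in JQ1 replicate 2 but 2.15 in JQ1 replicate 1, where it stood at the top 97.0% of the list. MAML1 thus counted as JQ1 recurrent on a peak near the calling limit.

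**Figure D2:**
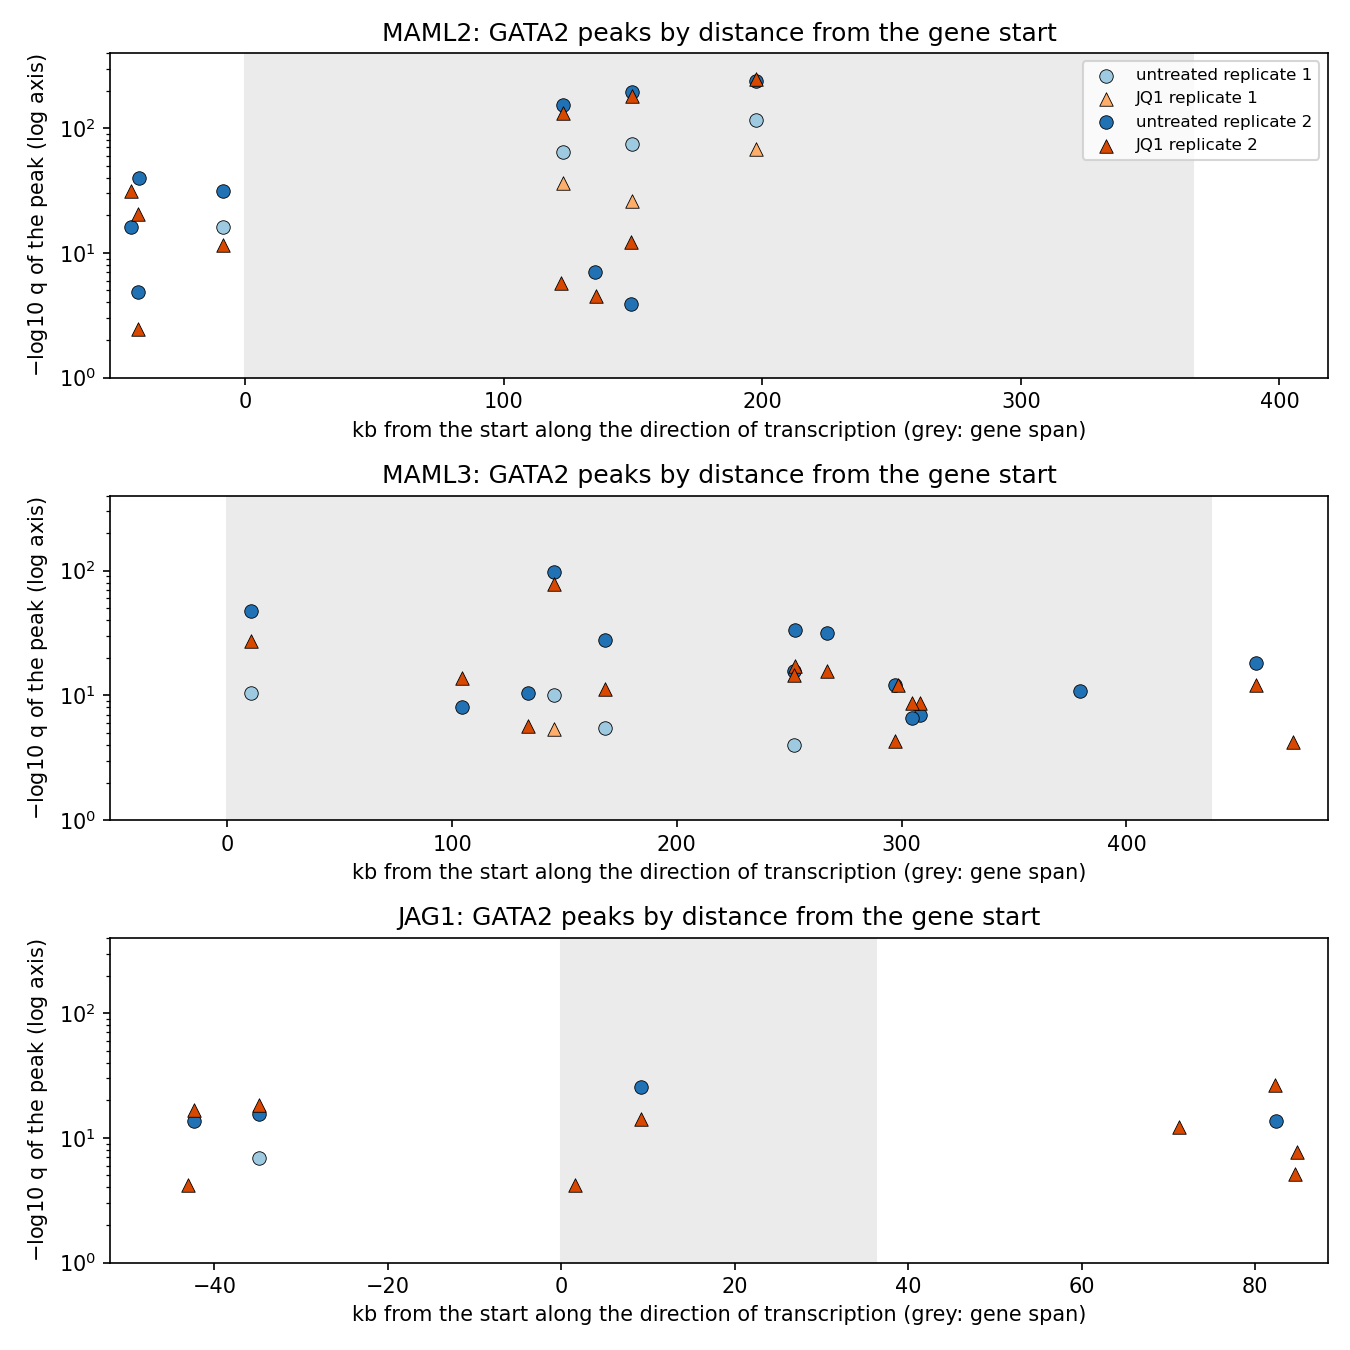
GATA2 peaks at MAML2, MAML3 and JAG1, plotted by distance from the gene start in kb along the direction of transcription (horizontal axis; negative is upstream) and by −log10 q (vertical, log axis), with circles for untreated and triangles for JQ1 lists and the gene span in grey. The 3 groups of 4 symbols inside MAML2 are its common regions, 123 to 198 kb from the start. MAML3 peaks are spread over the span, and JAG1 peaks lie mostly outside it.

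The target gene HES1, which codes for a basic helix-loop-helix repressor, had 2 regions, both in the replicate 2 lists only. HES1 (NCBI gene 3280, chr3:194136148-194138732, plus strand) had a region 15.9 kb upstream of the start, inside the neighbouring LOC102724877, with a −log10 q of 10.5 untreated and 6.01 with JQ1. The region 28.1 kb beyond its end had 6.37 untreated and 6.71 with JQ1.

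None of the 39 regions had its summit within 1 kb of a member's start, and no peak overlapped the 250 bases before the start in the 9 members with a RefSeq promoter sequence (GRCh38.p14). The share of all regions that lie this close to a gene start was not determined. Whether this sets the members apart is therefore unknown. These 9 windows were searched on both strands for the GATA motif, written AGATAA or AGATAG or TGATAA or TGATAG, and for the RBPJ motif GTGGGAA. The 5 words are distinct, and a window counted for GATA when it held any of the GATA words. A GATA motif was found in 0 of 9 member windows and in 17.9% of 22199 promoter windows of protein-coding genes. The RBPJ motif was found in 1 of 9, that of HES1, and in 5.27% of all windows. A match of letters is a description and not a site of binding. The windows of MAML2, the member with the strongest peaks, and of HES1, which holds the RBPJ motif, are printed on the gene's strand from 5′ to 3′, and each ends at the base before the start. Capitals mark the RBPJ motif, whose first base is 85 bases before the HES1 start, and the MAML2 window (chr11:96343196-96343445, minus strand) has no capitals since it holds none of the motifs. The HES1 window is chr3:194135898-194136147, plus strand.
MAML2: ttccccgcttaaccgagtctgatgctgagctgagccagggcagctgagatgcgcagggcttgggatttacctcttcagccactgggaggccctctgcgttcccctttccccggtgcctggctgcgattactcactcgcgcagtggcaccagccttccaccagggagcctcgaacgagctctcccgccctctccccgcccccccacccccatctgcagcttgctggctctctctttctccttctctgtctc
HES1: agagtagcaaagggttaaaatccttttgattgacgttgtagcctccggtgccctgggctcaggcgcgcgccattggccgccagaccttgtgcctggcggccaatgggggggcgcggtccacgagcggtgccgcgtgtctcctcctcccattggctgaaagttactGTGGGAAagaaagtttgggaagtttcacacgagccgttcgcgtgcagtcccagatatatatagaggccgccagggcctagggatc

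The nearest region to the printed MAML2 window was the one 8.54 kb upstream of the start, and to the HES1 window the one 15.9 kb upstream. The sequences under the peaks themselves were not analysed here.

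The target gene HEY1, the gene of another basic helix-loop-helix repressor (NCBI gene 23462), had no peak within 50 kb in any list. Its span is 3.76 kb long, so that its window is 104 kb wide.

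In the lists as deposited, untreated and JQ1 lists did not differ in the number of peaks near the members by more than replicates of a treatment did. It was 20.5 ± 14.8 (SD, n = 2) in untreated lists and 22 ± 24.0 (SD, n = 2) in JQ1 lists. The geometric means gave a log2 ratio of JQ1 over untreated of −0.33 (two-sided exact permutation p = 1). No p below 0.333 can arise from 2 lists against 2. The replicates went in opposite directions, from 10 to 5 peaks in replicate 1 and from 31 to 39 in replicate 2. The log2 ratio was −1 within replicate 1 and 0.33 within replicate 2. Leaving out single lists turned the sign, to 1.15 without JQ1 replicate 1 and to 0.48 without untreated replicate 2. It was −1.82 without JQ1 replicate 2 and −1.15 without untreated replicate 1. When each list was held to its 4974 strongest peaks by p-value, the length of the shortest, the groups did not overlap. The untreated lists then had 8 and 7 peaks near the members and the JQ1 lists 5 and 5, in replicates 1 and 2. The log2 ratio was −0.58, with an exact permutation p of 0.333, the smallest this design allows. How often peak numbers near other genes separate in this way was not examined. Whether the members stand apart in it is therefore unknown.

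No member region separated the treatments. Regions in both untreated lists and neither JQ1 list numbered 0 of 39, against 0.62% of all 36122 regions, and regions in both JQ1 lists and neither untreated list 0 of 39, against 0.377%. All 10 untreated recurrent regions were present in JQ1 replicate 2, against 96.2% of such regions in the genome, and 4 of 10 in JQ1 replicate 1, against 51.1%. The 6 that JQ1 replicate 1 lacked were 3 of MAML3 and 1 each of MAML2, JAG1 and NOTCH2. Of the 30 regions of untreated replicate 2, 28 were also in JQ1 replicate 2, against 80.8% of its regions in the genome. Regions in both replicate 2 lists and in neither replicate 1 list numbered 17 of 39, against 38% of all regions. A further 9 regions were in JQ1 replicate 2 alone and 2 in untreated replicate 2 alone. The shares of all regions with these patterns were not determined, and JQ1 replicate 2 is the longest list. With JQ1 replicate 1 left out, the common regions numbered 10 in place of 4 and the members that had one 4 in place of 2. Over the genome, 6126 of 6365 untreated recurrent regions were in JQ1 replicate 2 and 3251 in JQ1 replicate 1. A rise in common regions is therefore not particular to the members.

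The 4 common regions held lower ranks with JQ1 in both replicates when common regions were ranked by q-value. Each list ranked the same 3236 regions, with ties sharing a mean rank. The region at 96145461 in MAML2 went from rank 11 to 25 in replicate 1 and from 11 to 16 in replicate 2. The one at 96193488 went from 69 to 372 and from 67 to 99. The one at 96220078 went from 122 to 162 and from 231 to 333. The MAML3 region went from 2227.5 to 2723 and from 913.5 to 1204.5.

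Of all common regions, 28.3% ranked lower with JQ1 in both replicates and 27.2% ranked higher in both. Among the best 10% by mean rank the shares were 29.6% and 25%. The choice of measure mattered here. Ranked by fold enrichment, 2 of the 4 were lower with JQ1 in both replicates, against 26.1% of common regions. By that measure the region at 96145461 went from 7 to 42 in replicate 1 but from 40 to 20 in replicate 2, and the one at 96220078 from 123 to 111 and from 433 to 272. The regions at 96193488 and in MAML3 stayed lower, from 128 to 882 and from 94 to 124 for the former. No test was run on ranks, and 3 of the 4 regions share a gene.

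**Figure D3:**
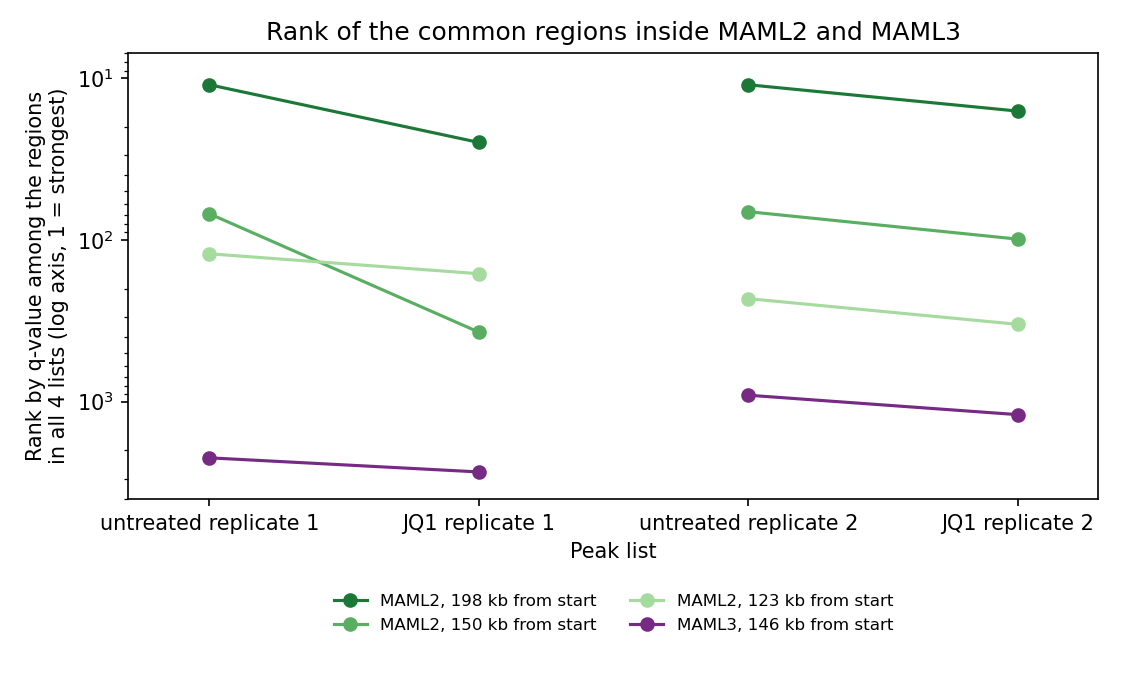
Rank by q-value among the 3236 regions found in all 4 lists (vertical, log axis, strongest at the top) of the 3 common regions of MAML2 and the 1 of MAML3, in each peak list (horizontal axis), with a line joining the lists of a replicate. Each line falls from untreated to JQ1, from 11 to 25 and from 11 to 16 for the strongest region, and MAML3 stands far below MAML2.

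Of the 39 member regions, 23 had their summit inside the member's span and 16 outside. MAML2 and MAML3, the longest members, held 20 of the 23 inside. Their spans fill most of their windows, 366.6 of 466.6 kb at MAML2 and 437.4 of 537.4 kb at MAML3. The other members had 14 regions, of which 3 lay inside, 2 in JAG1 and 1 in NOTCH2. All 4 common regions were inside, at 123 to 198 kb from the start. The share of all regions, or of all common regions, with a summit inside a gene was not determined. The outside regions often lay in another gene: SLX4IP near JAG1, CCDC82 near MAML2, MGST2 near MAML3, SEC16A near NOTCH1 and LOC102724877 near HES1. Assignment by distance does not show which gene a region acts on.

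Other genes of the Notch pathway had common GATA2 regions about as often as genes at large. The list held 65 genes and was written with the earlier results known. Of these, 9 had a common region, or 13.8% against the background of 13.6%. An untreated recurrent region lay near 12, or 18.5% against 24.3% of all genes, and a JQ1 recurrent region near 10, or 15.4% against 17.8%. A peak in any list lay near 40 of the 65, against 62.6% of all genes, and 25 had none. Nuclear corepressor genes had 4 of 14, namely NCOR1, TLE1, TLE3 and TLE4, with a median span of 71.4 kb. Of these 14 genes, 6 are over 100 kb long, a length at which 31.4% of all protein-coding genes had a common region. The remaining groups had 1 of 9 processing genes (FURIN, a protease gene), 1 of 5 glycosylation genes (POFUT1, a fucosyltransferase gene), 1 of 6 nuclear activators (SNW1), 1 of 15 endocytosis and turnover genes (MIB1, a ubiquitin ligase gene) and 1 of 9 target genes (HEY2). Other ligand genes had 0 of 6 and NOTCH4, the other receptor gene, had no peak.

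The strongest common region of that list was at TLE1, which codes for a Groucho-type corepressor. It lay 28.3 kb outside the gene. In replicate 1 its −log10 q was 69.9 without JQ1 and 26.8 under JQ1. In replicate 2 the values were 165.7 and 212.5, in the same order. TLE3, a corepressor gene of the same family, had 35.8 and 66.0 untreated and 17.2 and 71.9 with JQ1 at a region inside the gene. HEY2, a target gene related to HEY1, had 24.6 and 72.2 untreated and 10.6 and 55.4 with JQ1 at a region 7.02 kb away. The values overlapped between treatments at all 3 genes.

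Genes of the list with no peak included the ligand genes DLL1, DLL4, DLK1 and DLK2, the glycosyltransferase genes LFNG, MFNG, RFNG and POGLUT1, and the target genes HES2, HES3, HES4, HES5 and NRARP. The coactivator gene EP300, the acetyltransferase gene KAT2A, the deacetylase genes HDAC1 and HDAC2, the corepressor gene TLE2 and the gamma-secretase subunit gene NCSTN had none either. The same was true of NUMBL, MIB2, NEURL1B, DTX2 and DTX3 in the endocytosis and turnover group.

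**Figure D4:**
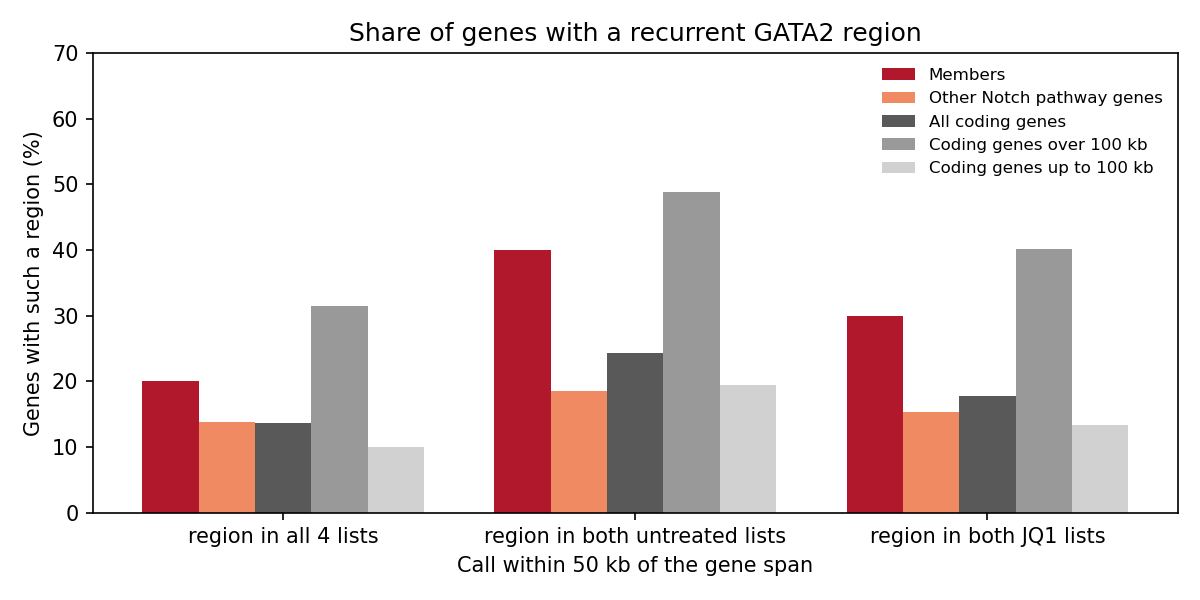
Percentage of genes (vertical axis) with a GATA2 region within 50 kb that is in all 4 lists, in both untreated lists or in both JQ1 lists (horizontal axis), for the 10 members, the 65 other Notch pathway genes, all protein-coding genes and those over or up to 100 kb long. For regions in all 4 lists the bars stand at 20%, 13.8%, 13.6%, 31.4% and 9.99%.

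The genes whose numbers of peaks were most like those of MAML3 were CERS6, ANGPT1 and GRIK2. Likeness was the sum of absolute differences in the number of peaks over the 4 lists, and it was 2 for each. In the order untreated replicate 1, JQ1 replicate 1, untreated replicate 2 and JQ1 replicate 2, CERS6 had 4, 2, 13 and 13 peaks. ANGPT1 had 4, 1, 11 and 14, and GRIK2 had 2, 1, 13 and 14. Their spans are 319, 248 and 676 kb.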

How the data were processed

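GATA2 ChIP-seq was analysed in 4 precipitates, 2 untreated and 2 with JQ1. The build was hg38 and the tools Bowtie2, Picard and MACS2 per the submitters' processing notes (versions not given in the sources used here). The deposited lists hold, per peak, a caller's score (not used), a linear fold enrichment ratio, and −log10 p-values and q-values, all made by the authors. The read depth is unknown. Each line counted as 1 peak; 18 lines outside chromosomes 1 to 22, X and Y were left out. Peaks overlapping by at least 1 bp were merged with Python 3.11.15 and pandas 2.3.3, after checks on simulated data with known answers. Peak values only describe and rank peaks within a list.

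Gene spans and promoters came from RefSeq (GRCh38.p14), and 65 of 65 pathway genes matched, 1 by synonym. Strand was read from the promoter table, whose 3024 overlapping opposite-strand pairs were all reverse complements.

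Members, lists and distance were chosen with earlier results of these data known. The text names all members, their common and strongest regions, pathway genes with a common region or no peak, and the 3 genes most like the member with most peaks. Pathway genes, shares and ranks carry no test. Alternatives were other distances, stricter q-values, equal list lengths, reciprocal overlap and leaving out lists.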

Additional observations from a re-analysis of the deposited data

How the results depend on the processing

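The counts of members and of regions common to the 4 lists kept their values of 2 and 4 at 10 kb, at 100 kb, at a q-value of 1e-05 or less, with lists of equal length, with a reciprocal overlap of 50% and for summits inside the gene span, the last chosen after seeing the data. With lists of equal length (4974 peaks), members with an untreated recurrent region numbered 2 in place of 4, and 1 region, at MAML3, became untreated-separated. With reciprocal overlap, 1 region, at JAG1, became untreated-separated. For summits inside the span, 3 other pathway genes had a common region in place of 9. Ranked by fold enrichment, 2 of 4 common regions were lower with JQ1 in both replicates; the cause was not tested.

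The log2 ratio of peak numbers was −0.58 with lists of equal length (8 and 7 untreated peaks against 5 and 5 with JQ1, exact permutation p = 0.333, the smallest possible). It ran from −0.49 to −0.33 in the other alternatives that kept all 4 lists (exact permutation p = 1). Peak numbers in lists of equal length were not compared for other genes.

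Leaving out each list in turn, the log2 ratio of peak numbers ran from −1.82 to 1.15 and was reversed without JQ1 replicate 1 (1.15) and without untreated replicate 2 (0.48). Where a group then held 1 list, that list stood for its group. Members with a common region ran from 2 to 4, with an untreated recurrent region from 4 to 7 and with a JQ1 recurrent region from 3 to 7. Common regions ran from 4 to 10, untreated-separated regions from 0 to 6, JQ1-separated regions from 0 to 9 and other pathway genes with a common region from 9 to 12. Shares of all genes or regions were not determined with a list left out.

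The labels give replicate numbers but no shared batch or day. With the replicate block the log2 ratio was −0.33 (exact sign-flip permutation p = 1, smallest possible 0.5), the value without it. For each of 20037 genes, replicate 2 was subtracted from replicate 1 in log2 of 1 plus the peak number. These differences correlated at 0.68 between untreated and JQ1. Both replicate 1 lists are the shorter ones, so a shared batch cannot be told apart from list length here. The read depth of the lists is unknown, so absence of a peak in a short list means only that none was called.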

Other observations

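Of 102 regions near the other Notch pathway genes, 2 had a peak in each untreated list and none in either JQ1 list, against 0.62% of all regions. No test was run on this count. The genes were named after their values were seen. One lay 39.6 kb outside SNW1, which codes for a nuclear cofactor of Notch, at chr14:77800566-77800805, with a −log10 q of 6.53 in untreated replicate 1 and 10.2 in untreated replicate 2. The other lay inside the corepressor gene TLE4, at chr9:79573660-79573872, with 3.60 and 9.19. Both genes also had a common region.

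CREBBP, an acetyltransferase gene, and SNX27, a sorting nexin gene, had a region in both untreated lists but not in both JQ1 lists. At both of these genes JQ1 replicate 2 had peaks and the short list of JQ1 replicate 1 had 0. NEDD4, a ubiquitin ligase gene, was the reverse case, with 1 peak in JQ1 replicate 1 and none in untreated replicate 1.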
